A study of Mus musculus with 4 samples.

Results

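Cortical thymic epithelial cells (cTECs) were selected from 4 droplet-based single-cell RNA libraries of mouse thymic epithelial cells (TECs). A cell was counted as a cTEC if Prss16 and Psmb11 together gave at least 60 UMIs per 10000 UMIs of the cell and at least 5 UMIs. It also had to hold fewer than 3 of 6 genes of TEC progenitors (Ackr4, Dcn, Serpinf1, Prelp, Gpm6b and Gas1) and fewer than 3 of 8 thymocyte genes (Cd3d, Cd3e, Cd3g, Lck, Trbc1, Trbc2, Cd8b1 and Rag1). A UMI is the molecular identifier that marks each captured mRNA molecule. Of 28055 cells that had 200 genes or more and no more than 25% mitochondrial UMIs, 892 met these limits. Since measured values chose these cells, levels of the genes in the limits, and differences between cTECs and other cells, are given as a description.

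The study asked what remains of TECs when signals through RANK and CD40 are removed in adult mice on the C57BL/6 background. WT-Control mice had received rat IgG, WT-RANKL-Ab mice the neutralizing RANKL antibody OYC1, and mice deficient in Cd40 the same IgG (Cd40-/- Control) or the same antibody (Cd40-/- RANKL-Ab), injected under the skin at 5 mg/kg and 4 weeks of age. TECs (EpCAM+ CD45- TER119-) of 3 mice at 6 weeks of age, 2 weeks after injection, were pooled into 1 library per condition. With 1 library per condition no comparison has a replicate, so no test was possible and none was made. The WT mice were purchased females by the methods, which leave the sex of the Cd40-/- mice and their relation to the WT mice unstated. Ddx3y, Eif2s3y, Kdm5d and Uty, which lie on the Y chromosome, gave 0 UMIs in the cTECs of all 4 libraries.

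cTECs form the outer thymus, where immature thymocytes commit to the T lineage and undergo positive selection. They supply the Notch ligand Dll4, the cytokine Il7 and the chemokines Ccl25 and Cxcl12, and their identity depends on the transcription factor Foxn1. For selection they present peptides cut by Psmb11, the β5t subunit of the thymoproteasome, on MHC class I, and peptides cut by the proteases cathepsin L (Ctsl) and Prss16 on MHC class II. A cTEC can enclose many thymocytes (a thymic nurse cell), so cells that carry RNA of both kinds are a known feature of TEC preparations.

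Psmb11, 1 of the pair of genes that selected the cells, is a known target of Foxn1, whose core motif reads GACGC. In the 300 bases from 250 before to 50 after its start (RefSeq, GRCm38.p6, chr14:54625060-54625359, plus strand) this core lay 239 and 62 bases before the start. It is shown here because Psmb11 defines the cells, with the 2 matches in capitals, both as GCGTC since they lie on the other strand.
Psmb11: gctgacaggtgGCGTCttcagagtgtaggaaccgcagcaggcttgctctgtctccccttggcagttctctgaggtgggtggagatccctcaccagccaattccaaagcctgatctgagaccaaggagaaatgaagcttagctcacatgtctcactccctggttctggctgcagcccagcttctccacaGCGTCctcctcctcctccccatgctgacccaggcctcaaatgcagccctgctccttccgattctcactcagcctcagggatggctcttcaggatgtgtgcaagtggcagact
On both strands GACGC was found in 27.2% of 32851 promoter windows of this length, so a match on its own is common. It was found in 4 of 11 windows of other cTEC genes (36.4%), or for 4 of the 10 genes with a window.

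The Cd40-/- libraries were not independent at the level of cells. They shared 205 barcodes among the kept cells, whereas the other 5 pairs of libraries shared 17 to 116. Of these 205, 182 held at least 10 times as many UMIs in Cd40-/- RANKL-Ab, with a median ratio of 35.5 (quartiles, 33.8 and 38.2), and only 501 to 1669 UMIs in Cd40-/- Control. The other 23 were scattered. Of the 378 cTECs of Cd40-/- Control, 56 (14.8%) had such a repeated barcode, with a median of 712 UMIs against 25980.5 for the same barcodes in Cd40-/- RANKL-Ab. In Cd40-/- RANKL-Ab 33 of these 56 barcodes met the pair limit but held 3 or more thymocyte genes, 9 held 3 or more progenitor genes, 13 were cTECs and 1 had no class. The repeated barcodes gave 1.87% of the cTEC UMIs of Cd40-/- Control. They therefore weigh on its number of cTECs more than on its summed expression. Of its 334 cells with both cTEC and thymocyte genes, described below, 36 had a repeated barcode as well. Shares over cells of at least 2000 UMIs, thinned or not, leave them out by depth, and the other shares of this library are given with and without them.

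**Figure D1:**
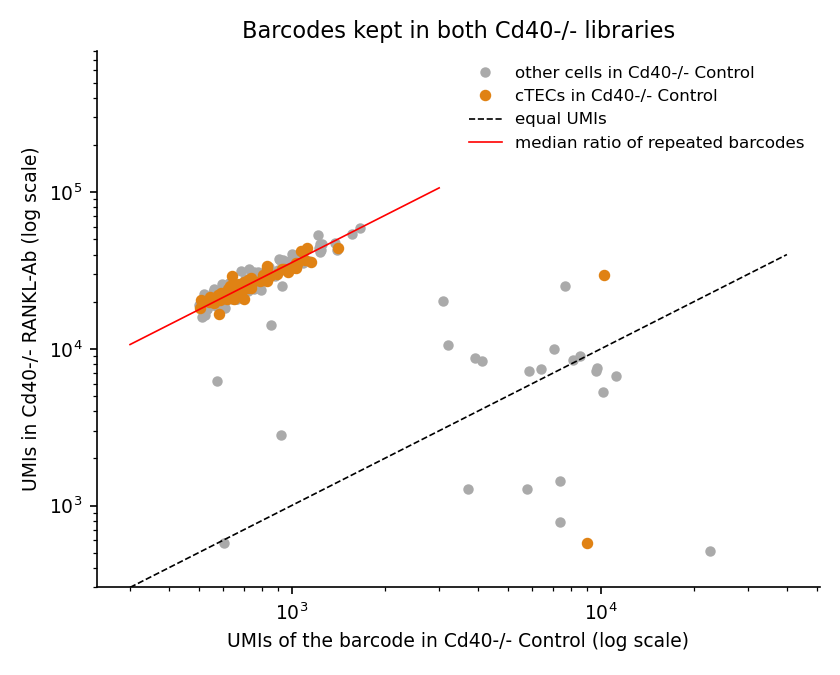
UMIs of each barcode kept in both Cd40-/- libraries, with Cd40-/- Control on the x axis and Cd40-/- RANKL-Ab on the y axis (both log scales), 1 point per barcode. Points in orange were cTECs in Cd40-/- Control, the dashed line marks equal UMIs and the red line the median ratio of 35.5, around which 182 of the 205 points lie in a narrow band.

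cTECs made up a larger share of the sorted TECs in each of the 3 libraries that lacked RANKL, CD40 or both signals than in WT-Control. In WT-Control 65 of 10218 cells were cTECs (0.636%, 95% Clopper-Pearson interval 0.491 to 0.810). WT-RANKL-Ab had 272 of 7164 (3.80%, 3.37 to 4.27) and Cd40-/- Control 378 of 8591 (4.40%, 3.98 to 4.86). Cd40-/- RANKL-Ab had 177 of 2082 (8.50%, 7.34 to 9.78). These shares were 5.97-fold, 6.92-fold and 13.4-fold that of WT-Control, or log2 ratios of 2.58 (2.18 to 2.99), 2.79 (2.41 to 3.19) and 3.74 (3.32 to 4.17). All intervals here cover counting error and leave out any spread between mice or preparations. Without the repeated barcodes, Cd40-/- Control had 322 of 8409 (3.83%, 3.43 to 4.26), 6.02-fold the share of WT-Control, and its interval and that of WT-RANKL-Ab nearly coincided.

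A share says nothing of the number of cTECs per thymus, since fewer cells of other types raise it as much as more cTECs do, and these cannot be told apart here. Set against Ccl21a-high mTECs instead (cells of no other class with at least 20 Ccl21a UMIs per 10000), among cells of at least 2000 UMIs, cTECs were 1.40%, 5.91%, 12.2% and 17.1% of both kinds together. The order of the libraries was the same as before. Ccl21a, however, was itself at different levels in the 4 libraries, so the denominator moves too.

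**Figure D2:**
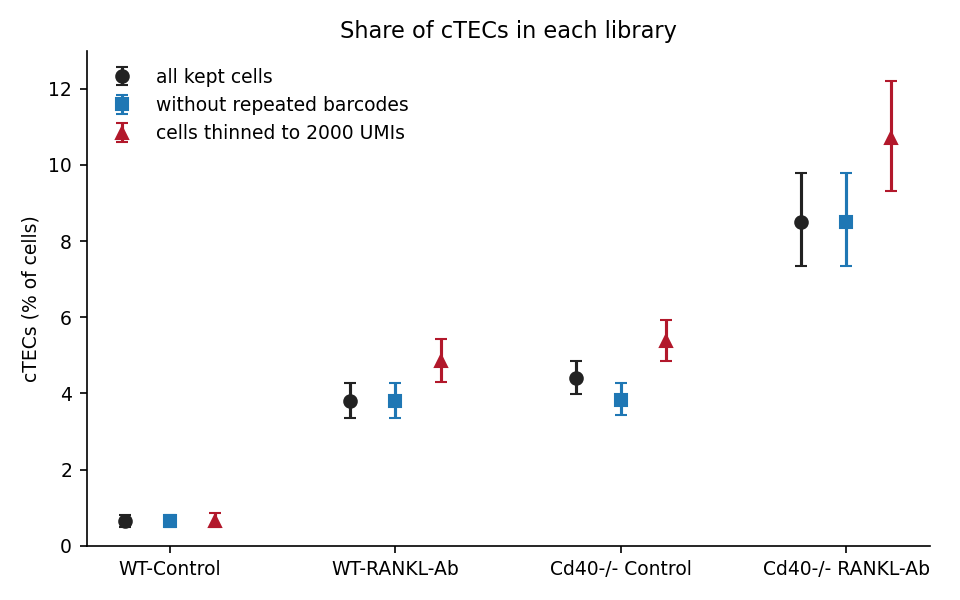
Percent of cells that met the cTEC limits (y axis) in each of the 4 libraries (x axis), over all kept cells (black), without the repeated barcodes (blue) and with every cell thinned to 2000 UMIs (red). Bars are 95% Clopper-Pearson intervals for counting error. In all 3 readings WT-Control was lowest, between 0.636% and 0.659%, and Cd40-/- RANKL-Ab highest, between 8.50% and 10.7%.

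The cTECs were low in thymocyte RNA but not free of it, and the limit depends on depth. Among the 892 cTECs, 619 held none of the 8 thymocyte genes, 213 held 1 and 60 held 2. Summed over the 8 genes, cTECs with 2 of them held 86.4, 195, 531 and 162 CPM (WT-Control, WT-RANKL-Ab, then Cd40-/- Control and Cd40-/- RANKL-Ab). The cells with 3 or more held at least 4198 CPM. Just outside the limit, 26 cells held exactly 3, of which 20 came from Cd40-/- Control. Repeated barcodes are included in these values, and those among the 20 were not counted apart. The cTECs with 2 of the genes had median UMIs of 29350, 15623.5, 1285.5 and 13945, so those of Cd40-/- Control were shallow. The cells that met the pair limit but held 3 or more thymocyte genes, called cTEC-thymocyte complexes below, numbered 31 and 147 in the control and antibody libraries of WT mice and 334 and 101 in those of Cd40-/- mice. They were deep, with, in the same order, median UMIs of 26125, 19182, 14545 and 26343, against 5319, 5886, 4514.5 and 7972 in cTECs. When each complex was thinned to 2000 UMIs, 32.3%, 20.1%, 20.2% and 20.8% of them met the limits for cTECs.

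The number of cTECs beside each complex also differed with the depth of the cells counted. Over all cells there were 2.10, 1.85, 1.13 and 1.75 cTECs per complex, and among cells of at least 10000 UMIs 0.800, 0.612, 0.328 and 0.826. Cd40-/- Control was lowest in both readings, with 86 cTECs and 262 complexes above 10000 UMIs. With the complexes counted as cTECs, the shares of the 4 libraries became 0.940%, 5.85%, 8.29% and 13.4%, and that of Cd40-/- Control was 7.37% without the repeated barcodes. With the limits applied to cells thinned to 2000 UMIs, they became 0.659%, 4.84%, 5.38% and 10.7%, or 7.35-fold, 8.16-fold and 16.2-fold that of WT-Control.

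Near the other limits the cells were continuous with their neighbours. There were 97 cTECs with 60 to 70 UMIs of the pair per 10000 and 95 cells with 50 to 60 that met every other limit. The median rate was 112, 118, 122 and 110 per 10000 in the 4 libraries. Of the 6 progenitor genes, 472 cTECs held none, 284 held 1 and 136 held 2, and 65 cells fell just outside with exactly 3. A total of 122 cTECs also had at least 20 Ccl21a UMIs per 10000: 6.15% and 20.2% of those of WT mice with IgG and antibody, and 6.08% and 22.6% of those of Cd40-/- mice. Without repeated barcodes 5.59% of cTECs in Cd40-/- Control did so.

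Levels were summed over the cTECs of a library and scaled to 1000000 UMIs of these cells (CPM), which rest on 620569, 2072023, 2285217 and 1725409 UMIs. Here and below, 4 values in a row stand for the control and then the antibody library of WT mice, followed by the control and antibody libraries of Cd40-/- mice. All other cells, or other cells, means every kept cell that was not a cTEC, complexes included. Ccl25 (ENSMUSG00000023235, chromosome 8 from 4325210 to 4360020 of GRCm38), the chemokine that draws progenitors through Ccr9, stood at 12946, 10906, 11788 and 9857 CPM, against 606, 1030, 1296 and 2231 CPM in all other cells. Ly75 (ENSMUSG00000026980, chromosome 2 from 60292103 to 60383303), the endocytic receptor DEC-205 that marks cTECs, stood at 661, 621, 1069 and 694 CPM, against 22.0, 79.9, 117 and 171 CPM. Neither gene was used to choose the cells, and both were higher in cTECs than in other cells of every library, as the name cTEC requires. The pair itself gave 8491, 9615, 9756 and 8681 CPM for Prss16 and 4000, 3415, 3255 and 3413 CPM for Psmb11.

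Among the genes most specific to cTECs by level were 15 with at least 100 CPM in each library. After the pair, these were Isg20, Inmt, Ccl25, Cd83, Tbata, Fxyd2, Ly75, Ndrg3, Oma1, Pithd1, Cxcl12, Slc22a7 and Dusp28. Their mean level in cTECs was above that in other cells by log2 ratios from 3.33 for Prss16 to 2.68 for Dusp28. Tbata, a thymic stromal gene, stood at 19327, 20627, 18555 and 17684 CPM and Cd83, which stabilizes MHC class II and is needed in cTECs for CD4 T cell selection, at 582, 504, 591 and 603 CPM. For both the 4 libraries lay close together, while the level in other cells was lowest in WT-Control and highest in Cd40-/- RANKL-Ab.

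**Figure D3:**
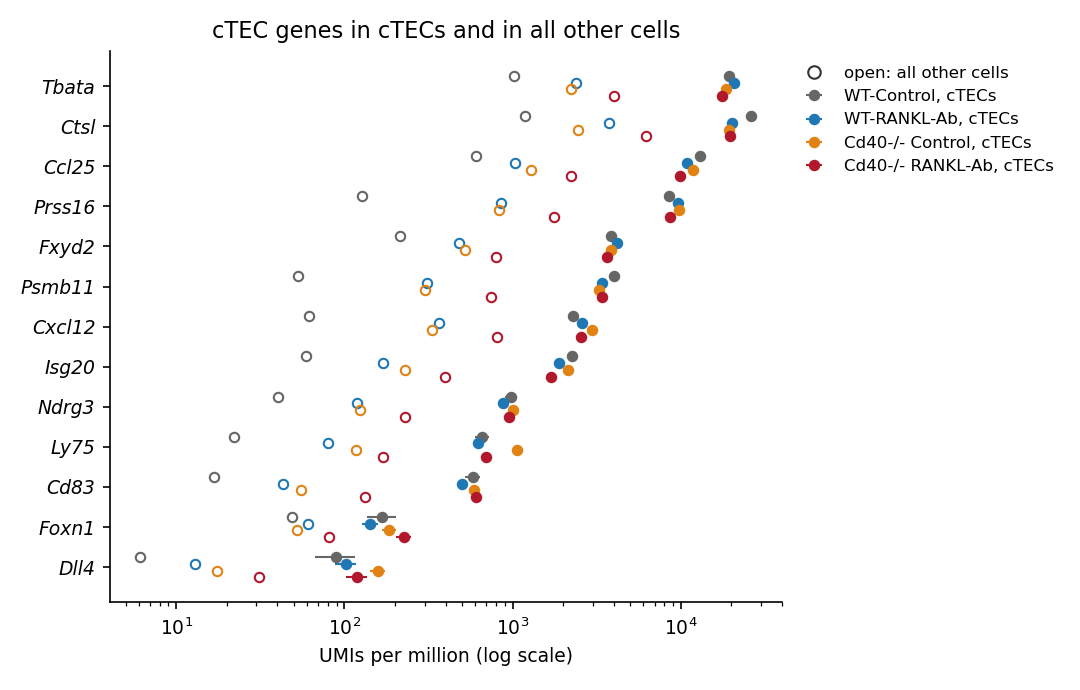
Levels of 13 cTEC genes (y axis) in CPM (x axis, log scale) in the cTECs (filled points, with 95% Poisson intervals where wider than the point) and in all other cells (open points) of the 4 libraries. For each gene the 4 filled points lie within 2-fold of each other and right of the 4 open points, which spread out with WT-Control lowest.

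Markers of most other cells were low in cTECs. Summed over 15 thymocyte genes outside the limits, cTECs held 54.8, 43.0, 60.8 and 47.0 CPM, against 392, 602, 851 and 1144 CPM in other cells and 2303 to 3278 CPM in complexes. The macrophage and myeloid list of 7 genes gave 12.9, 15.4, 19.3 and 12.2 CPM from 8, 32, 44 and 21 UMIs. Other cells held 491, 97.5, 416 and 8.66 CPM, so in Cd40-/- RANKL-Ab the level was higher in cTECs. Tuft cell markers, 7 genes, gave 79.0, 21.2, 8.75 and 39.4 CPM, against 244, 592, 182 and 188 CPM, and were thus highest in cTECs of WT-Control. Fibroblast genes were at 0 in both WT libraries and gave 5 and 8 UMIs in the Cd40-/- libraries, and endothelial, erythroid and parathyroid genes gave at most 7 UMIs in any library. Cell cycle genes, 20 in all, summed to 69.3, 72.9, 91.0 and 82.9 CPM, where other cells held 491 to 1080 CPM. At 2000 UMIs per cell, 0 of 49, 0 of 217, 0 of 262 and 0 of 142 cTECs showed 3 or more of these genes, which allows shares of up to 6.12%, 1.38%, 1.15% and 2.11% (3 cells of the number thinned) for cells in which 3 are detected at this depth. It sets no limit on cells that express them. Unthinned, 1, 10, 13 and 10 cTECs did, or 1.54%, 3.68%, 3.44% and 5.65%.

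mTEC markers did appear in cTECs. The sum of 11 of them was 1428, 2466, 1186 and 2749 CPM, between 11.0% and 15.2% of the level in other cells of the same library. The libraries of antibody-treated mice were high in both cell groups, and Ccl21a made up 686, 1599, 704 and 1890 CPM of the sum. Whether free RNA in the droplets takes part in these values was not tested.

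Cd40, the gene disrupted in the Cd40-/- mice, checked the labels first. Cd40 (ENSMUSG00000017652, chromosome 2 from 165055627 to 165072948) gave 79.0 CPM in the cTECs of WT-Control from 49 UMIs and 54.1 CPM in WT-RANKL-Ab from 112 UMIs. The Cd40-/- libraries stood at 10.1 CPM from 23 UMIs and 10.4 CPM from 18 UMIs. Both were lower than both WT libraries, at 0.127-fold (0.0741 to 0.213) and 0.132-fold (0.0724 to 0.231) of WT-Control. Thinned to 2000 UMIs, 14.3%, 11.5%, 1.53% and 0.704% of cTECs had a Cd40 UMI, and unthinned 33.8%, 27.2%, 5.56% and 8.47%, with 6.21% in Cd40-/- Control without the repeated barcodes. As a background, thymocyte-like cells (3 or more thymocyte genes and too few UMIs of the pair, with median UMIs of 11394, 3037, 2904 and 1786) gave 18.5%, 1.76%, 1.01% and 0.943% at the same depth. The share in cTECs was above it beyond counting error in WT-RANKL-Ab, and in the other libraries the intervals overlapped. These cells had passed the EpCAM gate, and in WT-Control they are no clean background, since they held Tnfrsf11a as well.

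RANK itself (Tnfrsf11a), the receptor for RANKL, was barely seen in cTECs. It gave 1, 17, 9 and 17 UMIs, or 1.61, 8.20, 3.94 and 9.85 CPM, where other cells held 88.2, 60.8, 79.2 and 27.1 CPM. At 2000 UMIs, 0%, 1.84%, 0.763% and 1.41% of cTECs had a UMI (0 of 49 cells in WT-Control, 3 of which would be 6.12%, limits cells with a UMI at this depth and not cells that express the gene), against 11.2% to 13% of Ccl21a-high cells. Thymocyte-like cells gave 16.0%, 3.53%, 5.05% and 0.943%, so no share in cTECs stood clear of this background, in Cd40-/- RANKL-Ab with 2 of 142 cells. Unthinned, 1.54%, 5.88%, 2.12% and 7.91% of cTECs had one, and 2.48% in Cd40-/- Control without the repeated barcodes.

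Among the cells that the pair limit chose, cTEC genes differed little between the libraries. Genes were compared when they had at least 50 UMIs in the cTECs of both libraries together, with 10 CPM added to each level before the log2 ratio, and a gene was called past 2-fold at a log2 ratio of at least 1 or at most -1. A gene rare in 1 library could thus pass this limit only through the other, where it was higher. Of 11 cTEC genes outside the limits (Ccl25, Ly75, Enpep, Tbata, Cxcl12, Ctsl, Dll4, Foxn1, Cd83, Slc46a2 and Snap91), 0 were past 2-fold in any of the 4 comparisons. Over all genes, 61 of 5956 (1.02%) were higher and 38 (0.638%) lower in WT-RANKL-Ab than in WT-Control. In Cd40-/- Control 236 of 6452 (3.66%) were higher and 70 (1.08%) lower than in WT-Control, and in Cd40-/- RANKL-Ab 139 of 5692 (2.44%) higher and 20 (0.351%) lower. Cd40-/- RANKL-Ab against Cd40-/- Control had 52 of 7420 (0.701%) higher and 15 (0.202%) lower.

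The first 3 of these comparisons share WT-Control, whose 65 cTECs gave the fewest UMIs, and are therefore given side by side and not set against each other. Scaled with TMM factors instead of totals, the median of all genes moved from 0.18 to 0.03 in Cd40-/- Control against WT-Control. The calls there became 133 higher and 119 lower, so that 52.8% instead of 77.1% were higher. For Cd40-/- RANKL-Ab against WT-Control they became 86 higher and 34 lower (71.7% instead of 87.4%). The excess of higher genes in Cd40-/- Control thus depended on the scaling.

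Foxn1, the master regulator of TECs, stood at 168, 142, 185 and 225 CPM in cTECs. The Notch ligand Dll4 (chromosome 2 from 119325784 to 119335962) gave 88.6, 102, 158 and 118 CPM and was thus highest in Cd40-/- Control, at 1.78-fold (1.34 to 2.41) the level of WT-Control. Ly75 was highest in the same library, at 1.62-fold (1.46 to 1.80). Slc46a2, a solute carrier of thymic stroma, was lowest there, with 516, 354, 331 and 573 CPM. These differences stayed under 2-fold. The median log2 ratio of the 11 genes was -0.18, 0.13 and 0.07 against WT-Control and -0.11 between the Cd40-/- libraries, where the medians of all genes were 0.09, 0.18, 0.10 and -0.05. In all other cells, a mixture that includes the complexes, the same genes had medians of 0.99, 1.05, 1.86 and 0.78. Ccl21a-high cells alone had medians of 0.44, 0.21, 0.86 and 0.65. Cells past the limit of progenitor genes had 1.08, 1.30, 0.84 and -0.06. How far a different make-up of the other cells sets their medians was not tested. Within cTECs these genes stayed near the median of all genes.

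Of the ligands and chemokines that instruct thymocytes, Cxcl12, which retains early progenitors in the cortex, gave 2300, 2594, 2970 and 2539 CPM. Il7, the survival cytokine of immature thymocytes, gave 279, 264, 259 and 313 CPM, and Kitl, the ligand of Kit on progenitors, 96.7, 121, 125 and 125 CPM. For the adhesion molecule Vcam1 the values were 485, 550, 599 and 471 CPM. None of these was past 2-fold in any comparison. Ccl21a, an mTEC chemokine, was past 2-fold in WT-RANKL-Ab and Cd40-/- RANKL-Ab against WT-Control, and Ccl21a and Ccl19 were past 2-fold in Cd40-/- RANKL-Ab against Cd40-/- Control.

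Antigen processing was described by 4 lists. Of 9 proteasome subunits and activators, Psmb11 among them, Psme2, a subunit of the PA28 activator, was lower past 2-fold in WT-RANKL-Ab and Cd40-/- Control, with 297, 125, 116 and 156 CPM. WT-Control was high alone. In other cells Psme2 had log2 ratios of -1.76, -0.89 and -2.00 against WT-Control, so its direction was shared. Psmb5, the constitutive counterpart of Psmb11, stood at 522, 421, 298 and 330 CPM, and the immunoproteasome subunits Psmb9 at 1133, 738, 852 and 846 CPM and Psmb10 at 2169, 1778, 1266 and 1432 CPM. WT-Control was highest for these 3 genes as well. The median of the 9 genes was -0.28, -0.48 and -0.42 against WT-Control, and 9, 9 and 8 of the 9 lay below the median of all genes. Psmb11, which helped to choose the cells, is counted in both, and values without it are not given, so both are a description.

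MHC genes showed less. None of 13 class I genes and none of 9 class II genes was past 2-fold in any of the 4 comparisons, and the medians lay between -0.09 and 0.07 for class I and between -0.12 and 0.13 for class II. The class II chain H2-Ab1 stood at 6149, 6800, 5816 and 5700 CPM, and the invariant chain Cd74 at 14400, 14516, 12226 and 12030 CPM. In all other cells class II had a median of -0.96 in Cd40-/- RANKL-Ab against WT-Control, where it was -0.12 in cTECs. Ctsl (chromosome 13 from 64359337 to 64370890) gave 26073, 20149, 19443 and 19731 CPM and the cathepsin inhibitor Cstb 16856, 12966, 12550 and 12706 CPM, both highest in WT-Control and under 2-fold. None of the 5 lysosomal genes compared was past 2-fold.

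Among TEC transcription factors, 0 of 12, 11, 12 and 12 were higher past 2-fold in the 4 comparisons. Hes6 was lower in Cd40-/- Control (log2 ratio -1.14), where a single cell of WT-Control held 60 of its 181 UMIs. The cortical keratins Krt8 and Krt18 stood at 5585, 5313, 4533 and 4854 CPM and at 8963, 7831, 7076 and 8142 CPM. The medullary keratins Krt5 and Krt14 were higher with the antibody in both genotypes. Krt5 gave 137, 246, 165 and 368 CPM and Krt14 49.95, 131, 41.6 and 96.8 CPM. These were the 2 of 6 keratins past 2-fold in Cd40-/- RANKL-Ab against Cd40-/- Control, where 0.701% of all genes were higher. Against WT-Control, Krt14 alone was higher past 2-fold in WT-RANKL-Ab, Krt5 alone in Cd40-/- RANKL-Ab and 0 of 6 in Cd40-/- Control. Over all genes 1.02%, 2.44% and 3.66% were higher there.

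Genes stimulated by interferon (ISGs), which TECs express at rest, were lower in the cTECs of Cd40-/- RANKL-Ab than in those of either control library. Of 30 compared with WT-Control, 4 were lower past 2-fold (Ifi27l2a, Xaf1, Ifi27 and Isg15) and 0 higher, where 0.351% of all genes were lower. Of 37 compared with Cd40-/- Control, 4 were lower (Ifi27, Ifi27l2a, Igtp and Iigp1) and 0 higher, where 0.202% of all genes were lower. The median log2 ratio was -0.45 and -0.47, below the medians of all genes at 0.10 and -0.05, and 3 genes of the list lay above these in each comparison. In WT-RANKL-Ab and Cd40-/- Control against WT-Control the list had medians of -0.13 and 0.03, with Ifi27l2a and Xaf1 lower in both and Trim25 higher in Cd40-/- Control.

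Ifi27 (ENSMUSG00000064215, chromosome 12 from 103434211 to 103440239), named for its induction by interferon, gave 796, 567, 613 and 248 CPM in cTECs. Cd40-/- RANKL-Ab was low alone, at 0.312-fold (0.273 to 0.355) WT-Control and 0.405-fold (0.363 to 0.452) Cd40-/- Control. In all other cells Ifi27 went the other way, with 214, 394, 268 and 390 CPM, so that its level in cTECs was 372% of that in other cells in WT-Control and 63.6% in Cd40-/- RANKL-Ab. Thinned to 2000 UMIs, 71.4%, 57.6%, 60.3% and 40.1% of cTECs had a UMI.

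Its neighbour Ifi27l2a (ENSMUSG00000079017, chromosome 12 from 103442167 to 103443680) gave 424, 142, 160 and 60.9 CPM. A single cell held 135 of its 263 UMIs in WT-Control, and without the highest cell of each library its log2 ratio in Cd40-/- RANKL-Ab was -1.90 against WT-Control instead of -2.61. In WT-RANKL-Ab and Cd40-/- Control it was then -0.71 and -0.54, no longer past 2-fold. Xaf1 (chromosome 11 from 72301629 to 72313733), an interferon-induced antagonist of the apoptosis inhibitor XIAP, gave 131, 40.5, 54.7 and 30.1 CPM and was not held by a few cells, the highest holding 5 of 81 UMIs. Its log2 ratios without the highest cells were -1.47, -1.11 and -1.83 against WT-Control.

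Isg15 (chromosome 4 from 156199424 to 156200818), a ubiquitin-like modifier, gave 219, 109, 139 and 77.1 CPM. Bst2, which tethers virions to the cell surface, gave 459, 418, 319 and 227 CPM, at 0.495-fold (0.424 to 0.578) in Cd40-/- RANKL-Ab. The GTPases Igtp and Iigp1 gave 49.95, 44.9, 54.7 and 20.3 CPM and 40.3, 32.8, 45.1 and 16.8 CPM. For all of these Cd40-/- RANKL-Ab was the lowest library. Isg20, an exonuclease that is also among the most specific genes of cTECs, gave 2248, 1892, 2151 and 1694 CPM.

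Lower medians of ISGs were also found outside cTECs. In all other cells the same genes had medians of -0.36 and -0.50 in Cd40-/- RANKL-Ab against WT-Control and Cd40-/- Control, in cells with 3 or more progenitor genes -1.02 and -1.02, and in Ccl21a-high cells -1.16 and -1.17. The medians in cTECs, of -0.45 and -0.47, were thus nearer to 0 than those of both named cell groups. Across the other settings tried they ran from -0.57 to -0.40 and from -0.51 to -0.33.

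The promoters of ISGs often carry the interferon-stimulated response element, searched here as GAAA, any 2 bases and GAAA on both strands in windows of 300 bases (RefSeq, GRCm38.p6). It was found in 3.44% of 32851 windows, in 21 of 47 windows of listed ISGs (44.7%) and in 0 of 11 windows of cTEC genes. By gene, this was 21 of 40 listed ISGs with a window (52.5%) and 0 of 10 cTEC genes. The windows of Isg15 (chr4:156200769-156201068, minus strand), with matches 78, 72 and 66 bases before the start, and of Bst2 (chr8:71537423-71537722, minus strand), with matches 130 and 124 bases before it, are shown since both genes were lowest in Cd40-/- RANKL-Ab. Capitals mark the overlapping matches.
Isg15: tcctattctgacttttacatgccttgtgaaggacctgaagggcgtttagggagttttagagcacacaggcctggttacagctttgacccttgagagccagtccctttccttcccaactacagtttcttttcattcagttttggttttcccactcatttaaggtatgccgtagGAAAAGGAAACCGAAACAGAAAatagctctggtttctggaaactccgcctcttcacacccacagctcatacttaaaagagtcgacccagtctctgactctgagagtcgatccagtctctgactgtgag
Bst2: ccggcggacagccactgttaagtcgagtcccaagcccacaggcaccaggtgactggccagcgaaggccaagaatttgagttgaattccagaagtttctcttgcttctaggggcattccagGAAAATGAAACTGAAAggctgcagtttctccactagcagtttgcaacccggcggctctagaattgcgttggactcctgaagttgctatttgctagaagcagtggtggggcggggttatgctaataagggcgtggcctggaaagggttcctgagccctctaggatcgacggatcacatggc
The window of Xaf1 (chr11:72301379-72301678), which was also lower, held 0 matches.

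**Figure D4:**
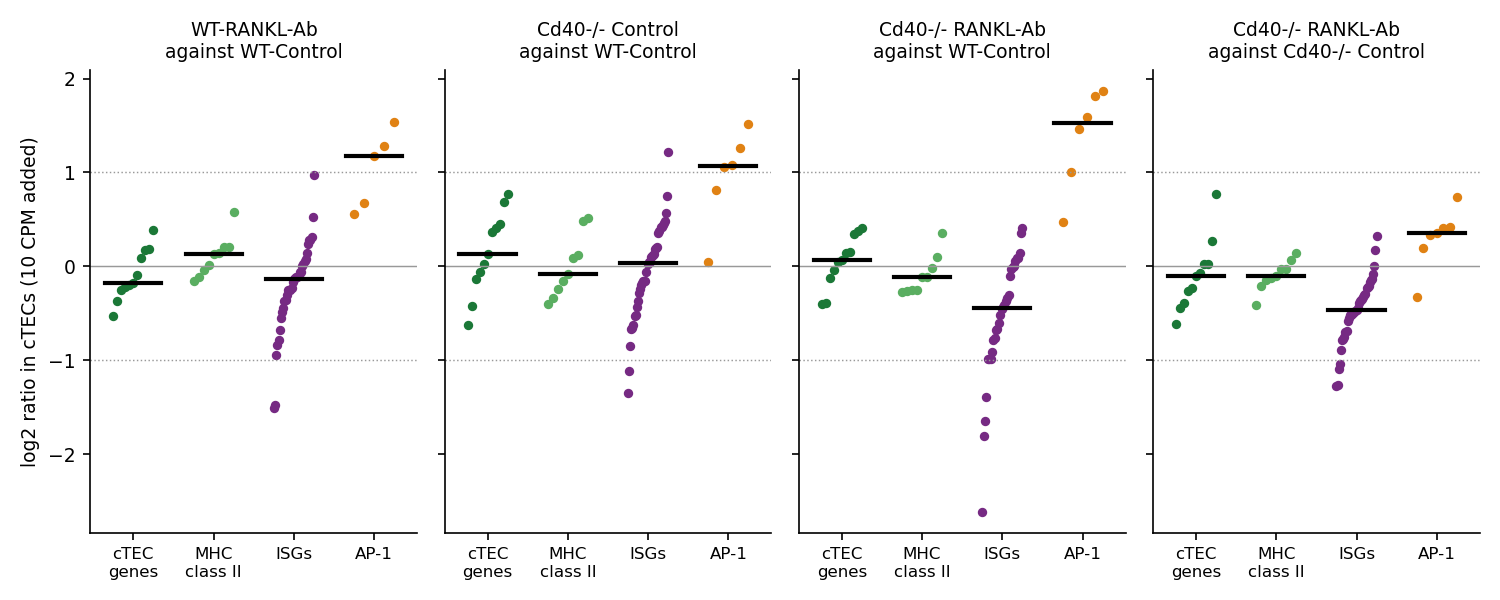
Log2 ratios in cTECs (y axis, 10 CPM added) for the cTEC genes, MHC class II genes, interferon-stimulated genes (ISGs) and the AP-1 family (x axis), in 4 comparisons (panels). Each point is a gene, bars are medians and dotted lines mark 2-fold. cTEC genes lie around 0 in each panel, ISGs have medians of -0.45 and -0.47 in the panels on the right, and AP-1 genes medians of 1.17, 1.07 and 1.53 in the panels against WT-Control.

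The AP-1 family, transcription factors that cells induce within minutes of a stimulus, was higher in all 3 other libraries than in WT-Control. Of the genes compared, 3 of 5 were higher past 2-fold in WT-RANKL-Ab, 4 of 6 in Cd40-/- Control and 5 of 6 in Cd40-/- RANKL-Ab, with 0 lower and medians of 1.17, 1.07 and 1.53. Over all genes 1.02%, 3.66% and 2.44% were higher. Between the Cd40-/- libraries 0 of 7 were past 2-fold, with a median of 0.35. Fos (ENSMUSG00000021250, chromosome 12 from 85473890 to 85477273) gave 38.7, 109, 93.2 and 162 CPM, with 4.18-fold (2.75 to 6.64) in Cd40-/- RANKL-Ab. Jun (chromosome 4 from 95049034 to 95052222) gave 87.0, 208, 193 and 258 CPM and Junb 132, 217, 239 and 275 CPM. Fosb and Atf3 were rare in WT-Control, with 3 and 4 UMIs, and Jund was under 2-fold at 330, 490, 343 and 462 CPM.

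WT-Control was lowest for each of these genes, and its values rest on few cells. Fos was found in 8 of its 65 cTECs and in 39 of 272, 64 of 378 and 53 of 177 in the others. Thinned to 2000 UMIs, 6.12%, 7.37%, 8.40% and 13.4% of cTECs had a Fos UMI and 22.4%, 25.3%, 24.0% and 24.6% a Jun UMI, so the share of cells differed less than the summed level. In other cells AP-1 genes were also higher, with medians of 0.39, 0.32 and 1.24 against WT-Control. Cells with 3 or more progenitor genes had medians of 0.30, 0.49 and 1.11, while Ccl21a-high cells had -0.29, 0.36 and 0.78, so that in WT-RANKL-Ab these lay on the other side of 0. In all other cells the sum of AP-1 genes was 1924, 2505, 2284 and 3628 CPM where cTECs held 603, 1087, 949 and 1254 CPM. Across the other settings tried the median in cTECs ran from 0.74 to 1.44, from 0.91 to 1.43 and from 1.23 to 1.80, and with TMM factors Jun in Cd40-/- Control was at 0.89, under 2-fold. Without the cell of each library that held most of its UMIs, Atf3 in WT-RANKL-Ab was at 0.97.

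Other immediate early and heat shock genes showed the same order in part. Of the immediate early genes outside AP-1, Egr1, Zfp36 and Cyr61 were higher past 2-fold in all 3 comparisons with WT-Control, joined by Btg2 and Socs3 in both Cd40-/- libraries, of 11, 14 and 11 compared, where 1.02%, 3.66% and 2.44% of all genes were higher. The zinc finger factor Egr1 gave 6.45, 36.7, 49.9 and 42.9 CPM from 4, 76, 114 and 74 UMIs. Egr1 too passed the limit of 50 UMIs only through the other libraries. The mRNA-destabilizing factor Zfp36 gave 30.6, 75.3, 98.0 and 112 CPM. Of 11 heat shock genes 2, 3 and 4 were higher, beside the same shares of all genes, among them the inducible chaperone Hspa1a at 98.3, 206, 241 and 410 CPM. The medians of the heat shock list, 0.16, 0.35 and 0.16, lay near those of all genes, so the list as a whole did not move as its inducible members did.

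In the RANK, CD40 and NF-kB list, 0 of 16 genes were past 2-fold in WT-RANKL-Ab. Of 17 genes compared in Cd40-/- Control, Nfkb1 (96.7, 138, 209 and 194 CPM) and Traf6 (8.06, 16.4, 31.5 and 21.4 CPM) were higher. Of 16 in Cd40-/- RANKL-Ab, Birc3, an NF-kB target, was higher (17.7, 44.9, 41.1 and 47.5 CPM). Cd40, the disrupted gene, was lower in both. Over all genes 3.66% and 2.44% were higher, and Traf6 rests on few UMIs in WT-Control, so these single calls are not read as a change of the list. With TMM factors Nfkb1 was at 0.87 and Birc3 at 0.96, under 2-fold, while Traf6 stayed past it. Nfkbia, the inhibitor that NF-kB itself induces, gave 322, 526, 421 and 367 CPM in cTECs, where other cells held 1580, 929, 1600 and 570 CPM. Between control and antibody it was lower in other cells of both genotypes, and in cTECs higher in WT and slightly lower in Cd40-/- mice.

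The pair of antibody comparisons that share no library, WT-RANKL-Ab with WT-Control and Cd40-/- RANKL-Ab with Cd40-/- Control, had 5935 genes in common. Of these 57 were higher past 2-fold in WT and 50 in Cd40-/- mice, and 9 in both (15.8% and 18.0% of each list): Acta2, Ccl21a, Fcgbp, Fezf2, Gem, Gm13305, Krt14, Serpinb3a and Tagln. Lower were 36 and 8, with Ifi27l2a in both (2.78% and 12.5%). Among the 9, Ccl21a, Fezf2 and Krt14 belong to the list of mTEC markers. Of the 8 markers compared, 3 were higher and 1 lower in WT-RANKL-Ab than in WT-Control. Against the same library, Cd40-/- Control had 0 higher and 3 lower (Cd40, Gpx3 and Hes6). Cd40-/- RANKL-Ab had 3 higher and 2 lower (Cd40 and Gpx3). Cd40 is the disrupted gene, so its call is given by the genotype, and Hes6 was held in part by a single cell of WT-Control. Over all genes 1.02%, 3.66% and 2.44% were higher and 0.638%, 1.08% and 0.351% lower in these 3 comparisons. Between the Cd40-/- libraries 4 of the markers were higher and 1 lower, where 0.701% and 0.202% of all genes were. Gpx3, a secreted glutathione peroxidase, was lower in all 3 comparisons with WT-Control, at 66.1, 10.6, 26.3 and 21.4 CPM, but a single cell of WT-Control held 29 of its 41 UMIs. Without the highest cells its log2 ratios were -0.63, -0.42 and -0.09. Cd52, a small surface glycoprotein, gave 15, 14, 50 and 5 UMIs and was lower between the Cd40-/- libraries (log2 ratio -1.31). Ccl21a gave 686, 1599, 704 and 1890 CPM in cTECs and 7550, 15657, 4687 and 19894 CPM in other cells. The actin Acta2 gave 5, 87, 33 and 173 UMIs in cTECs and the actin-binding Tagln 28, 229, 57 and 254 UMIs, and in other cells both were higher with the antibody too.

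Fezf2, a transcription factor of mTECs, was the exception among these. It gave 22.6, 84.5, 8.31 and 78.2 CPM in cTECs, 9.41-fold (5.80 to 16.1) between the Cd40-/- libraries, whereas in all other cells its log2 ratio there was -1.65. Its UMIs came from 5, 40, 14 and 28 cTECs. In cTECs with fewer than 20 Ccl21a UMIs per 10000 the log2 ratio of Ccl21a between the WT libraries was -0.60 instead of 1.21, and the mTEC list had a median of -0.36 instead of 0.45. This limit uses Ccl21a itself and took out 6.15% and 20.2% of the cTECs, so these values are a description. Between the Cd40-/- libraries the log2 ratio of Ccl21a was 1.45 in cells below it, against 1.41 in all cTECs, and that of Fezf2 1.36 instead of 2.27.

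Genes with the largest ratios were often carried by a few cells. In Cd40-/- RANKL-Ab against WT-Control the 10 highest were Acta2, Gem, Igfbp5, Hspa1a, Hspa1b, Fosb, Fos, Gstp1, Cyr61 and Egr1. Igfbp5, which binds insulin-like growth factors, gave 30, 314, 502 and 377 UMIs and stood 3.13-fold, 4.54-fold and 4.52-fold above WT-Control. Gstp1, a glutathione transferase, was high in Cd40-/- RANKL-Ab alone, with 52, 47, 81 and 201 CPM in cTECs and 52, 38, 74 and 206 CPM in other cells. The 10 lowest were Ifi27l2a, Lrmp, Cd40, Gng13, Sprr2a3, Xaf1, Rgs13, Ifi27, Alms1 and A630076J17Rik. Of these, the UMIs of WT-Control came from a single cell each for Sprr2a3 (79 UMIs), Lrmp (42) and Rgs13 (35), and a single cell held 44 of the 48 UMIs of Gng13.

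In Cd40-/- Control against WT-Control, Fabp4, Igfbp5, Hmgcs1 and Egr1 were highest and Gng13, Sprr2a3, Rpl36 and Cd40 lowest. Fabp4, a fatty acid carrier, gave 18, 65, 634 and 47 UMIs, with 135 in 1 cell of Cd40-/- Control. Hmgcs1, an early enzyme of cholesterol synthesis, gave 8, 58, 171 and 99 UMIs, spread over 103 cells of Cd40-/- Control. In WT-RANKL-Ab against WT-Control, Ccl5, Meg3, Gm13305 and Pgam2 were highest, but 1 cell held 202 of 315 UMIs of Ccl5 and 61 of 62 of Meg3. Sprr2a3, Gng13, Cox17 and Rpl36 were lowest there. Between the Cd40-/- libraries Fezf2, Acta2, Tagln and Gem were highest and Fabp4, Fabp6, S100a8 and Bcl2a1b lowest, and single cells of Cd40-/- Control held 60 of 62 UMIs of Fabp6 and 53 of 67 of Bcl2a1b.

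Within the cTECs, some cTEC genes were ordered by the rate of the selecting pair and others were not. Since that rate chose the cells, the values are a description. cTECs were split at 100 and 150 UMIs of Prss16 and Psmb11 per 10000, which gave 26, 20 and 19 cells in WT-Control and 101, 88 and 83 in WT-RANKL-Ab. Cd40-/- Control gave 129, 136 and 113 and Cd40-/- RANKL-Ab 72, 63 and 42. Ly75 stood at 259, 650 and 972 CPM from the low to the high bin in WT-Control and at 231, 707 and 928 CPM in WT-RANKL-Ab. In Cd40-/- Control it stood at 675, 958 and 1594 CPM and in Cd40-/- RANKL-Ab at 291, 738 and 1140 CPM. Dll4 was highest in the top bin of each library, with 56.2, 106 and 143 CPM in WT-RANKL-Ab and 83.6, 156 and 230 CPM in Cd40-/- Control, while in WT-Control it stood at 100.3, 49.97 and 108 CPM. The bin of 19 cells in WT-Control is thinly filled.

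Ctsl stood at 20575, 25133 and 30897 CPM in the bins of WT-Control and at 13355, 20923 and 26199 CPM in those of WT-RANKL-Ab. Tbata had no such order. Cxcl12 had none in the WT libraries, with 2296, 2165 and 2398 CPM in WT-Control and 2726, 2292 and 2761 CPM in WT-RANKL-Ab. It stood at 2846, 2867 and 3234 CPM in Cd40-/- Control and at 2101, 2754 and 2721 CPM in Cd40-/- RANKL-Ab. Foxn1 gave 127, 205 and 171 CPM in WT-Control and 162, 199 and 185 CPM in Cd40-/- Control. It lay higher from bin to bin with the antibody, at 120, 141 and 166 CPM in WT-RANKL-Ab and 201, 215 and 275 CPM in Cd40-/- RANKL-Ab. Ccl21a had the reverse order, with 2631, 1669 and 495 CPM in WT-RANKL-Ab and 4126, 977 and 629 CPM in Cd40-/- RANKL-Ab. Ly75 in Cd40-/- Control was above the other 3 libraries in each bin, as it was over all cTECs.

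**Figure D5:**
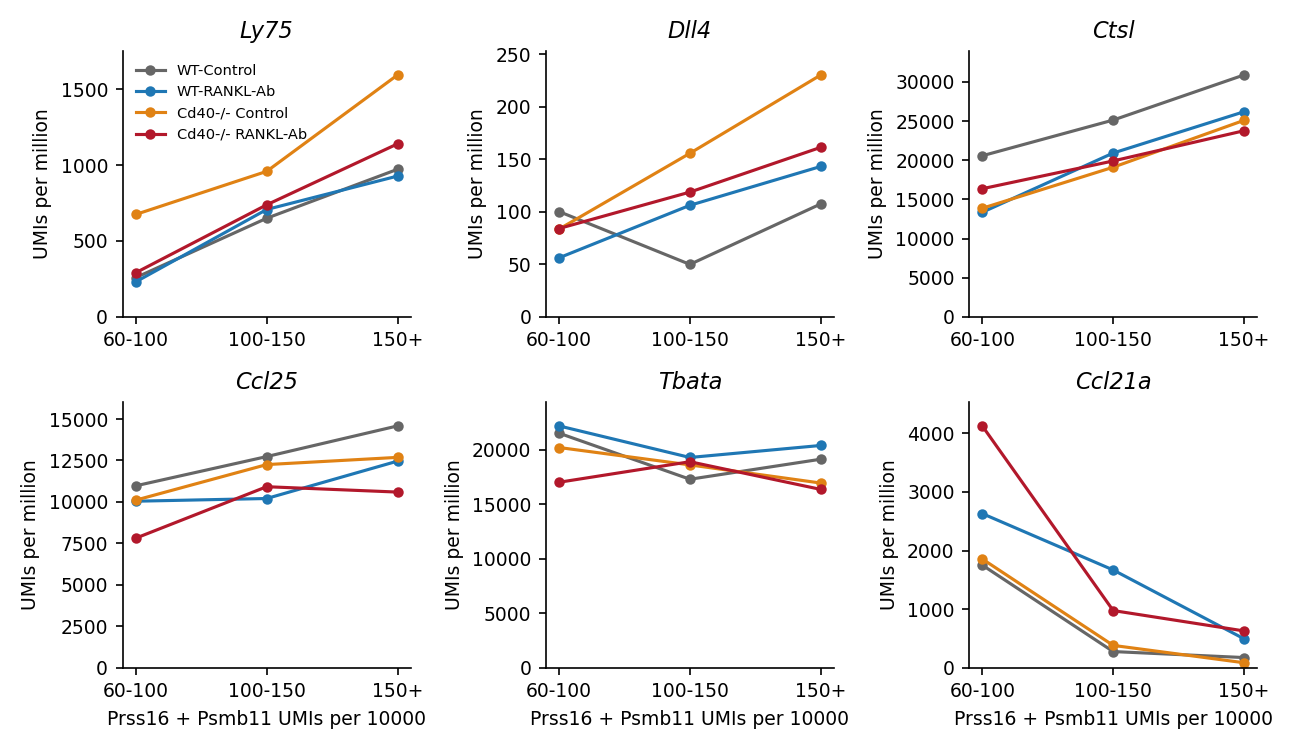
Levels of 6 genes (panels) in CPM (y axis, from 0) in cTECs split by UMIs of Prss16 and Psmb11 per 10000 (x axis, 60 to 100, 100 to 150 and 150 or more), 1 line per library and no error shown. Ly75 and Ctsl lie higher from bin to bin in all 4 libraries, Tbata shows no such order and Ccl21a lies lower.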

How the data were processed

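The authors trimmed the reads, aligned them to mm10 with Cell Ranger (5.1 in the submitters' processing notes, 5.0.1 in the file headers) and deposited UMI counts per gene and called cell, without normalization. The library kit is given as version 3.1 in the study's methods and as version 2 in the labels. The libraries held 10590, 7446, 9118 and 2099 barcodes and 95607338, 48888745, 66755852 and 19175068 UMIs, control before antibody and WT before Cd40-/- mice. The libraries were sequenced in multiplex. No doublet caller was run and the methods name no step that removes doublets.

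The members, gene lists and comparisons were chosen with earlier results of these data known. Counts were summed over the cTECs of a library and compared as CPM with Python 3.11.15 (numpy 2.4.6, pandas 2.3.3, scipy 1.17.1, matplotlib 3.10.9). Intervals are exact at the 95% level (Clopper-Pearson, Poisson, and conditional binomial for ratios). The conditional ratios were tried on simulated counts drawn independently for each gene, as the intervals assume. This checks the calculation only. It does not cover genes whose UMIs came mostly from a single cell. Ratios with an interval have no CPM added. TMM factors came from edgeR 4.0.16 under R 4.3.3, and coordinates from GENCODE M21. Genes named were list members, the 15 most specific to cTECs by level, and the 10 highest and 10 lowest by ratio in Cd40-/- RANKL-Ab against WT-Control, or 4 in each other comparison. Shares of cells with a UMI were taken after thinning to 2000 UMIs, which left out 16, 55, 116 and 35 cTECs. Of 400 genes, 400 matched the annotation. Some list members are not reported here by name. The alternatives concerned scaling, the CPM added, filters on UMIs, thymocyte genes, Ccl21a, mitochondrial UMIs, the limit of the pair and the denominator of the shares. Leaving out repeated barcodes, counting complexes as cTECs, taking Ccl21a-high cells into the denominator, leaving out the highest cell of a gene, and thinning before the limits were added after seeing the data.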

Additional observations from a re-analysis of the deposited data

Results flagged for a closer look

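Cox17, an assembly factor of cytochrome c oxidase, differed between the genotypes in its response to the antibody: its log2 ratio in cTECs was -2.19 in WT mice and 1.29 in Cd40-/- mice, a difference of 3.48. Rpl36, a ribosomal protein, had -1.92 and 1.50, a difference of 3.43. Each was named because its single libraries moved in opposite directions, and the difference was not tested. Other cells had the same order, with 226, 34, 53 and 81 CPM for Cox17 and 1744, 492, 460 and 1180 CPM for Rpl36. In all, 16 of 5935 genes compared in both were past 2-fold in opposite directions in cTECs, each lower with the antibody in WT and higher in Cd40-/- mice.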

How the results depend on the processing

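No paired analysis was possible because there was 1 library per condition, and leaving out a replicate was not possible for the same reason. The log2 ratio of the cTEC share to WT-Control stayed within its interval under 24 of 25 alternatives. The exception was WT-RANKL-Ab at 2.08 instead of 2.58, with cTECs and Ccl21a-high cells as the denominator. The shares themselves moved, with that denominator to 1.40%, 5.91%, 12.2% and 17.1%, and with complexes counted to 0.940%, 5.85%, 8.29% and 13.4%. With 100 UMIs of the pair per 10000 they were 0.382%, 2.39%, 2.90% and 5.04%, and with none of the 8 thymocyte genes 0.431%, 2.68%, 3.22% and 5.09%. Over cells with fewer than 3 thymocyte genes Cd40-/- Control had 4.90% and Cd40-/- RANKL-Ab 10.1%, and over cells of at least 2000 UMIs Cd40-/- Control had 3.80%. Without repeated barcodes it had 3.83%, and then 2.45% at 100 UMIs of the pair, 2.98% with no thymocyte genes, 3.90% at 13% mitochondrial UMIs and 4.24% over cells with fewer than 3 thymocyte genes. Thinning before the limits gave 4.84% in WT-RANKL-Ab, and 5.38% and 10.7% in the Cd40-/- libraries.

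Counts of genes past 2-fold depended on the treatment of low values, and stood at 99, 306 and 159 in the 3 comparisons with WT-Control (antibody, Cd40-/- and both) and at 67 between the Cd40-/- libraries as reported. Adding 1 CPM gave 286, 745, 363 and 152, and means over cells 443, 856, 675 and 150. cTECs without thymocyte genes gave 187, 608 and 249 in the first 3. Without the highest cell of each gene the first was 157 and the second 460. With at least 100 UMIs the first was 63 and the third 80, and with all genes 166 and 250. Unthinned, Cd40 was found in 33.8%, 27.2%, 5.56% and 8.47% of cTECs and Tnfrsf11a in 5.88% of WT-RANKL-Ab and 7.91% of Cd40-/- RANKL-Ab.

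Of 8868 values under an alternative 26 reversed, all log2 ratios of single genes. At 100 UMIs of the pair A630076J17Rik had 0.85, 0.79 and 0.42 against WT-Control, Bcl2a1b 0.014, Fabp6 -0.22, Hes6 0.47, Ifi27l2a in WT-RANKL-Ab 0.11, Rgs13 0.12, and Sprr2a3 0.10, 0.79 and 0.33. In cTECs without thymocyte genes Alms1 had 0.41 and 0.56, Gng13 1.35, Gpx3 0.078, Lrmp 1.39 and Rgs13 1.66. Without the highest cells Alms1 had 0.0065, Fabp6 -0.10, Rgs13 0.082, and Sprr2a3 0.068, 0.80 and 0.43. Below 20 Ccl21a UMIs per 10000, Ccl21a had -0.60 and Gm13305 -0.31 and -0.80. For the genes reversed without the highest cell, that cell accounts for the reversal, and for the others the cause was not tested. The 65 cTECs of WT-Control limit every ratio to that library.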

Other observations

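Lama3, a laminin subunit of the basement membrane, gave 29.0, 73.4, 69.1 and 71.3 CPM and was past 2-fold in all 3 comparisons with WT-Control. In other cells Lama3 gave 23.9, 55.6, 45.7 and 72.3 CPM. Of 9 to 11 genes of BMP, FGF and Wnt signals compared, Kremen1, a receptor that dampens Wnt signals, was the only gene past 2-fold, in both Cd40-/- libraries, with 16.1, 39.6, 50.8 and 46.9 CPM. Of 8 G1 regulators, the cyclin Ccnd1 was past 2-fold in WT-RANKL-Ab, at 6.45, 23.2, 11.8 and 21.4 CPM. Autophagy feeds class II presentation in TECs, and of its 13 genes compared with WT-Control Atg5 was past 2-fold in Cd40-/- Control, at 19.3, 42.5, 50.8 and 43.5 CPM. Over all genes 1.02%, 3.66% and 2.44% were higher than in WT-Control in the antibody, Cd40-/- and combined libraries, so single genes of lists of this size are near the background. WT-Control was lowest for all 4 of these genes, from 18, 10, 4 and 12 UMIs. With TMM factors Lama3 in both Cd40-/- libraries (0.87 and 0.96), Ccnd1 (0.99) and Atg5 (0.91) were under 2-fold, while Kremen1 stayed past it.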
